A study of Sus scrofa with 6 samples.

Results

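Cells with open sclerotome and cartilage genes were 478 of the 58809 cells analysed (0.813%, 95% exact binomial interval 0.742 to 0.889%) in 6 single-cell ATAC-seq libraries of pig embryos. The interval covers counting error over the pooled cells only, and the share ran from 0.457% to 1.16% between libraries. They were selected on measured values: a cell was chosen when it had between 2000 and 30000 counts in peaks, a count in at least 4 of 10 marker windows, and summed counts in those windows of at least 3 times what the mean share of its library and its own total would give. The 10 markers were PAX1, PAX9, NKX3-2, SOX9, COL2A1, ACAN, COL9A1, COL11A1, FOXC2 and UNCX, and a window spanned the gene itself and the 2 kb upstream of it. The chosen cells were compared with all other cells of the same library, called the rest, after the marker windows had been removed.

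ATAC-seq marks open chromatin with the Tn5 transposase, and each count is a cut inside a called peak. The study profiled somites of day 18 embryos (E18) and day 21 embryos (E21) as well as E28 myotomes, from purebred Tibetan pigs (ZZ) and from Duroc × Tibetan crosses (DZ), to follow how skeletal muscle forms and whether the breeds differ in it. Each of the 6 libraries was a pool of 5 embryos of a single sow, with 1 library for each stage and breed. No treatment or transgene was used, and the change from somite to myotome came together with the change to E28, so stage and tissue cannot be told apart.

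The sclerotome is the ventral and inner part of the somite, from which vertebrae and ribs arise. Hedgehog signals from the notochord and floor plate induce PAX1 and PAX9, which act with NKX3-2 to start the cartilage program. SOX9, together with SOX5 and SOX6, then opens and activates the genes of cartilage matrix such as COL2A1 and ACAN. In a dissection aimed at muscle, such cells would be neighbours of the dermomyotome and myotome rather than the target of the dissection.

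Cells that passed the main rule became more frequent with stage. In the E18 libraries the summed level of markers left out of the choice was only 1.10 and 1.09 times that of the rest, so the cells compared between stages share the rule and are not shown to be 1 cell type. They made up 0.525% of the cells of E18 ZZ (59 cells), 0.457% of E18 DZ (46 cells), 0.786% of E21 ZZ (73 cells) and 0.888% of E21 DZ (83 cells). They reached 1.16% in E28 ZZ (109 cells) and 1.14% in E28 DZ (108 cells). The intervals of the E18 libraries did not overlap those of the E28 libraries, and at each stage the intervals of the breeds overlapped. The share at E28 was 2.34 times that at E18 (95% interval 1.84 to 2.98), where the interval covers counting error only, since a stage had 1 library per breed. The size of this rise depended on how the cells were taken. After thinning to 4000 counts, with shallower cells left out, the shares were 1.69%, 2.24% and 2.25% for E18, E21 and E28, and the ratio of E28 to E18 fell to 1.34. The thinned shares of the E18 libraries were 1.45% (ZZ) and 1.96% (DZ) and those of the E28 libraries 1.58% and 2.94%, so of the E28 libraries only DZ lay above both E18 libraries. With a single mean share for all libraries the shares were 0.516%, 1.13% and 0.859%, so E21 and no longer E28 was the highest.

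**Figure D1:**
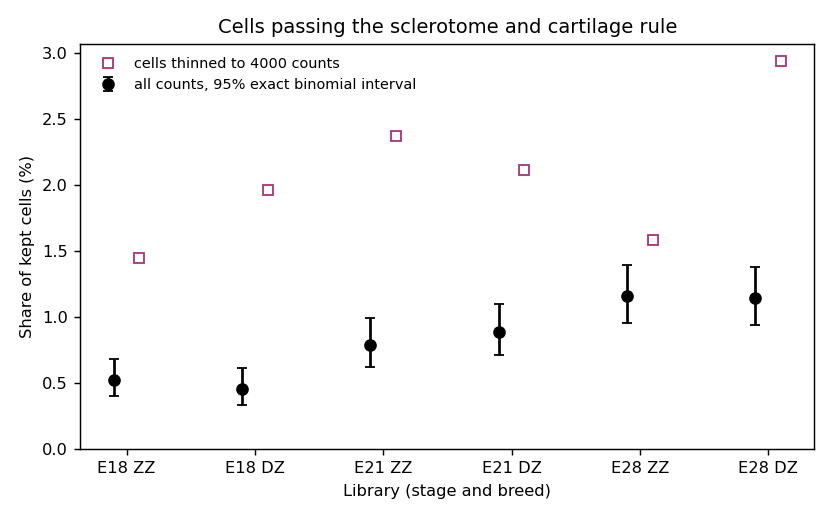
Share of kept cells (%) that passed the rule, by library, for all counts (filled points, with 95% exact binomial intervals) and after thinning each cell to 4000 counts (open squares, cells with fewer counts left out). With all counts the shares ran from 0.457% in E18 DZ to 1.16% in E28 ZZ, whereas after thinning E28 ZZ lay at 1.58%, below both E21 libraries and below E18 DZ at 1.96%.

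The chosen cells were shallower than the rest in every library. Their median count was 7304 against 10939 in E18 ZZ and 7392.5 against 8813.5 in E28 DZ. In E18 ZZ the share of chosen cells was 1.09% in the third of cells with the lowest depth and 0.0800% in the third with the highest. By ratio this was the steepest of the 6 libraries, and in E28 DZ the share was 1.05% at the lowest, 1.71% at the middle and 0.667% at the highest depth. A comparison with the rest drawn to the same depths was therefore made beside the main one. No barcode of a chosen cell occurred among the chosen cells of another library, while between 113 and 157 barcode names of kept cells were shared by any pair of libraries. The sums that entered the tests held between 362024 and 929978 counts in the chosen cells of a library and between 89039626 and 132583924 in the rest. Cells of a library are not replicates, so every test compared 6 pairs of sums. The spread behind a p-value and SE was estimated with information shared across all windows or regions. It is therefore not the spread of 1 window over the 6 libraries, and small p-values can go with uneven libraries.

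The marker windows themselves describe the selection and were not tested. COL2A1, which encodes the main collagen of cartilage, had a count in between 66.1% and 86.3% of the chosen cells of a library and in between 30.4% and 50.2% of the rest. FOXC2, a forkhead factor of the sclerotome, had one in between 30.5% and 56.5% of the chosen cells. Near the limit of the rule, 139 chosen cells lay between 3 and 3.2 times the expectation, and 222 cells with at least 4 windows lay just outside it, between 2.8 and 3 times. Of the chosen cells, 6.90% also passed the same form of rule for at least 1 of 10 lists of other cell types, against 7.51% of the rest. The share was 1.05% against 1.62% for the list of committed muscle genes. It was higher in the chosen cells for the dermomyotome (1.05% against 0.422%), neural progenitor (1.26% against 0.849%), neural crest (1.05% against 0.718%) and fibroblast lists (0.628% against 0.480%). For the remaining lists it was lower. The shares named here rest on 3 to 6 chosen cells each.

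To check the label on values that the rule had not used, the cells were chosen anew 10 times, each time on 9 of the markers, and the marker left out was then compared. Of the 10 left-out markers, 6 were more open in the chosen cells (edgeR quasi-likelihood test blocked by library, adjusted p under 0.05), where 0.792% of all windows were called higher over the 10 fits. The same 6 passed when the rest was matched on depth.

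Of the transcription factors of the sclerotome, PAX1 rose by 0.67 ± 0.15 (log2 fold change ± SE, adjusted p = 0.00166 by edgeR) in 5 of 6 libraries. PAX9, its close relative, rose by 0.45 ± 0.12 (adjusted p = 0.0156 by edgeR) in 6 of 6, and UNCX, a homeobox factor of the caudal part of the sclerotome, rose by 0.61 ± 0.14 (adjusted p = 0.00215 by edgeR) in 6 of 6. The left-out NKX3-2 and FOXC2 did not pass, at 0.33 ± 0.13 (adjusted p = 0.198 by edgeR) and 0.13 ± 0.16 (adjusted p = 0.832 by edgeR).

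Of the cartilage genes, COL2A1 had the lowest adjusted p. Its left-out window held 155, 149, 229, 181, 203 and 168 CPM (counts scaled to the total of the sum) in the chosen cells, in the order of the stages with ZZ before DZ at each. The rest held 137, 131, 124, 133.3, 123 and 86.2 CPM in the same order. The groups did not overlap, and the gap was smallest at E18. The difference was 0.56 ± 0.10 (log2 fold change, adjusted p = 2.3e-05 by edgeR). ACAN, which encodes the large aggregating proteoglycan of cartilage, rose by 0.61 ± 0.15 (adjusted p = 0.0108 by edgeR), and COL9A1, a collagen on the surface of cartilage fibrils, rose by 0.67 ± 0.15 (adjusted p = 0.00318 by edgeR). COL11A1, another fibril collagen, stood at 0.36 ± 0.12 (adjusted p = 0.0913 by edgeR). SOX9, the master regulator of cartilage, stood at 0.23 ± 0.15 (adjusted p = 0.585 by edgeR) and did not pass.

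The E18 libraries stood apart in the left-out markers. Their summed CPM was 1.10 and 1.09 times that of the rest in the E18 libraries (ZZ, then DZ), 1.59 and 1.40 times in those of E21 and 1.48 and 1.77 times in those of E28. At E18 the median left-out marker differed by 0.03 and 0.09 on the log2 scale, with markers on both sides of 0. FOXC2 was lower in the chosen cells of E18 ZZ and E18 DZ (-0.78 and -0.55), while UNCX (0.64) and SOX9 (0.48) were higher in E18 ZZ and PAX9 (0.54) in E18 DZ, and PAX1, COL9A1 and ACAN lay between -0.13 and 0.18 in both. In E28 DZ all 10 were higher. At E18 the left-out markers thus did not move together, and E21 and E28 overlapped in their ratios. A change with stage was not tested for these markers. The count of 6 fell to 3 without E21 ZZ and to 3 without E28 DZ.

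**Figure D2:**
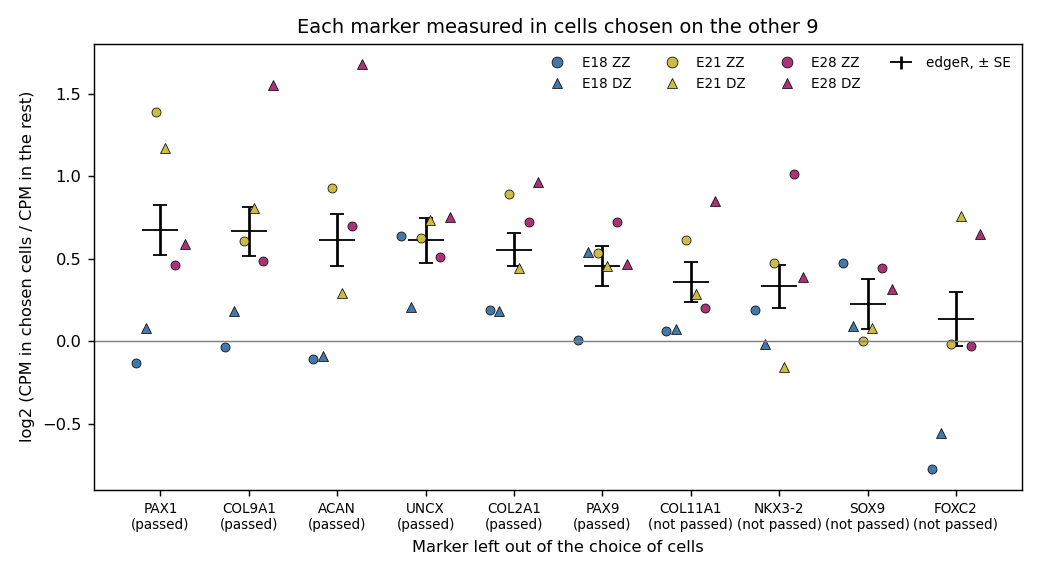
Each marker in cells chosen on the other 9: log2 ratio of the CPM of the chosen cells to that of the rest in each of the 6 libraries (circles ZZ, triangles DZ, colour for stage), with the edgeR estimate ± SE over the libraries as black bars. The E18 points (blue) lie on both sides of 0, from FOXC2 at -0.78 to UNCX at 0.64, and the E28 DZ points of COL9A1 and ACAN lie highest.

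Across all gene windows other than the markers, 358 of 23044 passed (1.55%), 153 higher in the chosen cells (0.664%) and 205 lower (0.89%). The 153 higher windows lay at 138 separate loci. The balance of the directions depended on scaling. DESeq2 called 411 windows, 260 of them higher, counts scaled by totals alone gave 183 and 185, and median-ratio size factors in edgeR gave 187 and 164. With the rest matched on depth 137 windows passed, among them 68 of the 153 higher and 65 of the 205 lower windows. Leaving out E28 DZ lowered the count to 116 and E21 DZ to 202, and leaving out E28 ZZ left 62 higher and 89 lower, while leaving out both E18 libraries raised it to 597.

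Regulators and matrix genes of the skeletal lineage leaned towards the chosen cells. The 3 lists of sclerotome regulators, cartilage regulators and cartilage matrix genes held 73 tested genes, of which 8 were called higher and none lower, against the 0.664% and 0.89% over all windows. The difference was positive in 55 of them (75.3%), against 42.1% of all windows, and their medians were 0.18, 0.18 and 0.25 against -0.06 over all windows. With the rest matched on depth 6 were called higher, with RUNX3 and PRELP no longer among them. With the promoter alone (2 kb before the start and the first 500 bp of the gene) 3 were (FOXC1, MATN4 and MIA), and none of the 26 cartilage regulators then tested. Without both E18 libraries, a setting added after the data were seen, 14 were called higher, and the 6 additional genes were RUNX1, GDF5, FGFR2, COL9A3, HAPLN1 and CHST11.

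Among the 17 sclerotome regulators FOXC1 alone passed. FOXC1 is a forkhead factor that acts with FOXC2 in somite and skeleton formation. Its window (gene at chr7:837088-840593, plus strand, build Sscrofa11.1) held 137, 122, 205, 184, 48.9 and 235 CPM in the chosen cells, in the same order of libraries. The rest held 117, 109, 108, 111, 38.7 and 114 CPM. It was higher in 6 of 6 libraries, and both groups were low in E28 ZZ, where levels depend on which peaks were called. The rise was 0.61 ± 0.12 (adjusted p = 1.43e-04 by edgeR). The next forkhead genes, FOXL1 and FOXF1, both of which respond to hedgehog signals, stood at 0.51 ± 0.20 and 0.37 ± 0.16 without passing. MEOX2 and TCF15, factors of early somite patterning, stood at 0.35 ± 0.15 and 0.31 ± 0.16. TBX18, which marks the rostral part of the somite, and MSX2, a homeobox factor of BMP signalling, had the smallest values at -0.26 ± 0.17 and -0.33 ± 0.25.

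Of 28 cartilage regulators 4 passed, and WWP2 stood far above the others. WWP2 encodes a ubiquitin ligase, and the microRNA gene MIR140, known from cartilage, lies inside it (chr6:17068780-17227982, minus strand, for WWP2). Its window held 128, 127, 379, 434, 445 and 566 CPM in the chosen cells. The rest held 114, 105, 149, 172, 174 and 152 CPM. At E18 the groups lay close together, whereas at E21 and E28 every chosen sum was above every sum of the rest. The rise over all libraries was 1.15 ± 0.10 (adjusted p = 1.58e-25 by edgeR), and it was 1.24 with the rest matched on depth.

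SOX5 and SOX6, the partners of SOX9 on cartilage enhancers, passed as well. SOX5 (chr5:49159950-50166463, plus strand) held 311, 409, 476, 515, 272 and 384 CPM in the chosen cells. The rest held 286, 329, 336, 344, 207 and 183 CPM. Within each library the chosen cells were higher, and the rise was 0.49 ± 0.09 (adjusted p = 1.43e-04 by edgeR). SOX6 rose by 0.40 ± 0.10 (adjusted p = 0.00496 by edgeR), also in 6 of 6 libraries. SOX6 also acts in muscle fibres, so it is not a marker of cartilage alone. RUNX3, which drives cartilage cells towards maturation, rose by 0.51 ± 0.14 (adjusted p = 0.0191 by edgeR) in 5 of 6 libraries, but did not pass with the rest matched on depth (0.57, adjusted p = 0.0854 by edgeR). GDF5, the growth factor of joint-forming cells, had a larger value of 0.83 ± 0.26 but did not pass (adjusted p = 0.0704 by edgeR): the chosen cells of E18 ZZ were listed at 0, while both E28 libraries held 75.9 and 63.4 CPM against 29.8 and 33.1 in the rest. FGFR3, a receptor that restrains cartilage growth, stood at 0.36 ± 0.19. CHRD and ARID5B, an antagonist of BMP and a partner of SOX9, had the smallest values at -0.49 ± 0.23 and -0.24 ± 0.12.

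Among the 28 tested matrix genes 3 passed. MATN4, a matrilin that links matrix fibres (chr17:47617559-47631195, minus strand), held 50.7, 66.3, 126, 102, 121 and 96.8 CPM in the chosen cells. The rest held 40.4, 37.8, 50.2, 45.1, 49.7 and 37.5 CPM. The groups did not overlap, and the rise was 1.09 ± 0.15 (adjusted p = 6.08e-10 by edgeR). The MATN4 window overlaps that of RBPJL on the other strand, so their counts cannot be told apart.

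PRELP, a small leucine-rich proteoglycan, rose by 1.02 ± 0.29 (adjusted p = 0.0311 by edgeR) in 5 of 6 libraries, but did not pass with the rest matched on depth (0.87, adjusted p = 0.154 by edgeR). COL11A2, which pairs with COL11A1 in cartilage fibrils, rose by 0.73 ± 0.21 (adjusted p = 0.0385 by edgeR). Its chosen cells held 26.5, 27.6, 15.8, 35.3, 66.9 and 97.9 CPM. The E28 libraries were the high ones, and E18 ZZ and E21 ZZ lay below the 28.4 CPM of their rest. The next values were 0.63 ± 0.28 for CHAD (chondroadherin), 0.55 ± 0.17 for COL9A3 (adjusted p = 0.0526 by edgeR) and 0.51 ± 0.23 for PAPSS2, which supplies the sulfate donor for proteoglycans. PRG4, the lubricant of joint surfaces, was listed at 0 in the chosen cells of all 6 libraries and held at most 2.03 CPM in the rest. UCMA, a late cartilage gene, held 5 counts in all chosen cells, and its value of -0.61 ± 1.05 did not pass.

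**Figure D3:**
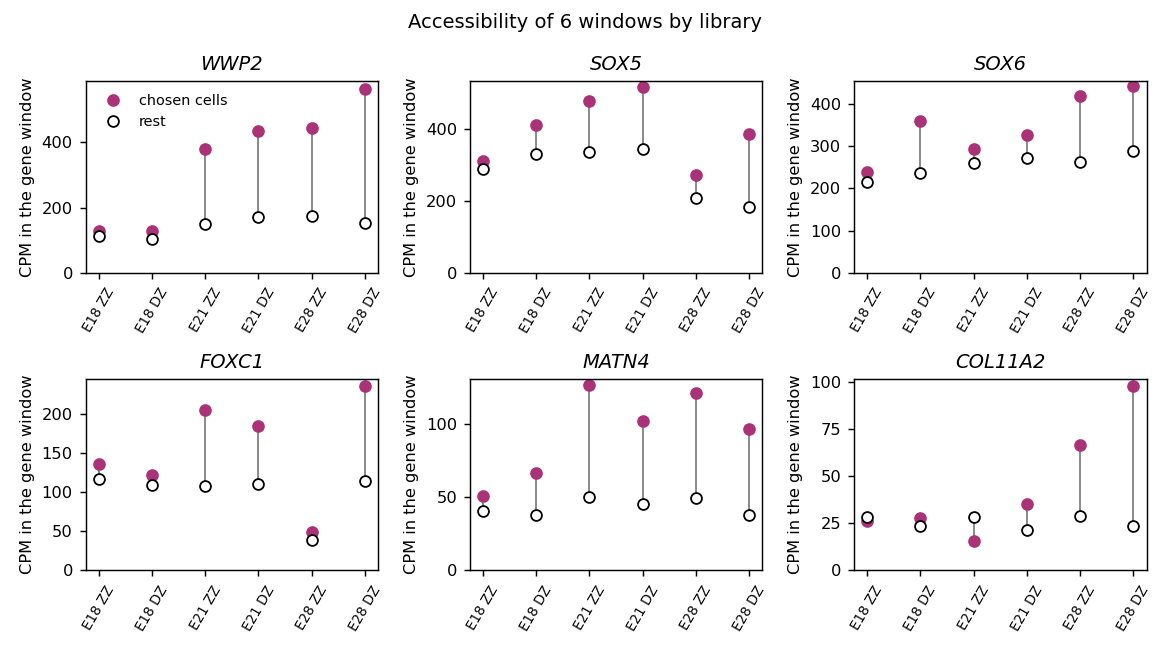
Accessibility (CPM of counts in the gene window) of 6 called genes in the chosen cells (filled) and in the rest (open) of each library, joined by a line. For WWP2 the gap opened between E18, where the chosen cells held 128 and 127 CPM, and E21, where they held 379 and 434 CPM. For COL11A2 the chosen cells stood highest at E28.

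Matrix genes were described by library, and no change of the list with stage was tested. The median of the 28 log2 ratios of chosen cells to rest was -0.10 and -0.06 in the E18 libraries, 0.10 and 0.15 in those of E21, and 0.42 and 0.60 in those of E28 (ZZ, then DZ), while the median of all windows lay between -0.05 and 0 in every library. The chosen cells were higher for 10 and 11 of the 28 genes at E18 and for 24 and 23 at E28. Their summed level ran from 1576 CPM in E18 ZZ to 2609 CPM in E28 ZZ, while the rest ran between 1650 and 1908 CPM.

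Whether the difference between chosen cells and rest itself changed with stage was tested as an interaction in the same 12 sums. The fit left 2 residual degrees of freedom. Its p-values therefore rest on a spread estimated across windows and not on replicates within a stage. Between E18 and E28 it changed at 18 windows (0.0781%), and between E18 and E21 at 1 window (0.00434%), which was WWP2. The difference at WWP2 was larger by 1.42 ± 0.23 at E28 than at E18 (adjusted p = 3.18e-05 by edgeR) and by 1.15 ± 0.24 at E21 than at E18 (adjusted p = 0.0295 by edgeR). The E21 term of WWP2 lost its call when E18 ZZ, E18 DZ, E21 ZZ or E21 DZ was left out. Without E28 DZ the E28 term of WWP2 stood at 1.22 and no longer passed (adjusted p = 0.253 by edgeR), and no window passed. The count of 18 was 2 without E28 ZZ, 5 without E18 DZ, 9 without E21 ZZ and 9 without E21 DZ, and leaving out E18 ZZ gave 30.

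For the matrix genes MATN4 and COL11A2 the E28 term was 0.77 ± 0.37 and 1.58 ± 0.52, and for SOX5 it was 0.53 ± 0.21, without passing. No window differed between breeds in its difference of chosen cells to rest by edgeR or by DESeq2, and 775 of 23044 had an unadjusted p under 0.05 by edgeR. For WWP2 the breed term (DZ minus ZZ) was 0.23 ± 0.18.

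In the comparison of the chosen cells with the rest over all libraries 5 genes of the lists for other cell types and for hedgehog response passed, a pair each from the dermomyotome and endothelial lists and 1 neuronal gene. Of 10 hedgehog response genes none passed (median -0.0030), with GLI1, a direct target of the pathway, highest at 0.31. Of 10 tendon genes none passed, and SCX, the tendon master factor, was highest at 0.53 (adjusted p = 0.108 by edgeR) while COL12A1 was lowest at -0.31. Among 12 dermomyotome genes PAX3 and PAX7, which mark muscle progenitors, fell by 0.44 ± 0.13 (adjusted p = 0.0493 by edgeR) and 0.58 ± 0.12 (adjusted p = 3.40e-04 by edgeR), and SIX4 was highest at 0.31. PAX3 did not pass with the rest matched on depth (-0.32, adjusted p = 0.511 by edgeR), and PAX7 did.

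PAX7 held 159, 122, 112, 85, 70.8 and 105 CPM in the chosen cells. The rest held 168, 170, 184, 142, 127 and 151.3 CPM. It was lower in 6 of 6 libraries, whereas PAX3 was higher in the chosen cells of E18 ZZ, at 205 against 125 CPM. Of 12 committed muscle genes none passed (median -0.34), from CHRNA1 at -0.997 to MYMK at 0.38. Their summed level was between 335 and 457 CPM in the chosen cells and between 362 and 534 CPM in the rest, so muscle genes were present in both.

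Of 9 endothelial genes 2 were called higher, where 0.664% of all windows were, a larger share than the 8 of 73 of the skeletal lists. ERG rose by 0.51 ± 0.10 (adjusted p = 3.02e-04 by edgeR) and FLI1 by 0.45 ± 0.10 (adjusted p = 0.00205 by edgeR), both in 6 of 6 libraries. Both are ETS factors known from endothelium. The remaining 7 did not pass, from SOX18 at 0.33 to CDH5, the junction protein of vessels, at -0.77, and CDH5 held between 2.57 and 22.04 CPM in the chosen cells against 5.84 to 25.9 CPM in the rest. The summed endothelial list held 583 to 855 CPM in the chosen cells and 505 to 606 CPM in the rest, with no marker at 0 in all libraries, and the median of its 9 genes was -0.26. The part of endothelial cells in the rise of ERG and FLI1 was not tested.

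No gene of the blood (7 tested, RUNX1 at 0.31 to HBM at -1.03), fibroblast (12, LUM at 0.43 to POSTN at -0.63), notochord (8, FOXA1 at 0.39 to NOTO at -0.36), neural progenitor (10, NKX6-1 at 0.22 to SOX3 at -0.38), neural crest (9, SOX10 highest at 0.13) and epithelial lists (10, CDH1 at 0.11 to KRT7 at -0.69) passed. Of 9 neuronal genes SNAP25, a synaptic protein, fell by 0.64 ± 0.17 (adjusted p = 0.0191 by edgeR), with SYT1 highest at 0.03 and NEUROD1 lowest at -0.72. SNAP25 did not pass with the rest matched on depth (adjusted p = 0.0740 by edgeR).

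**Figure D4:**
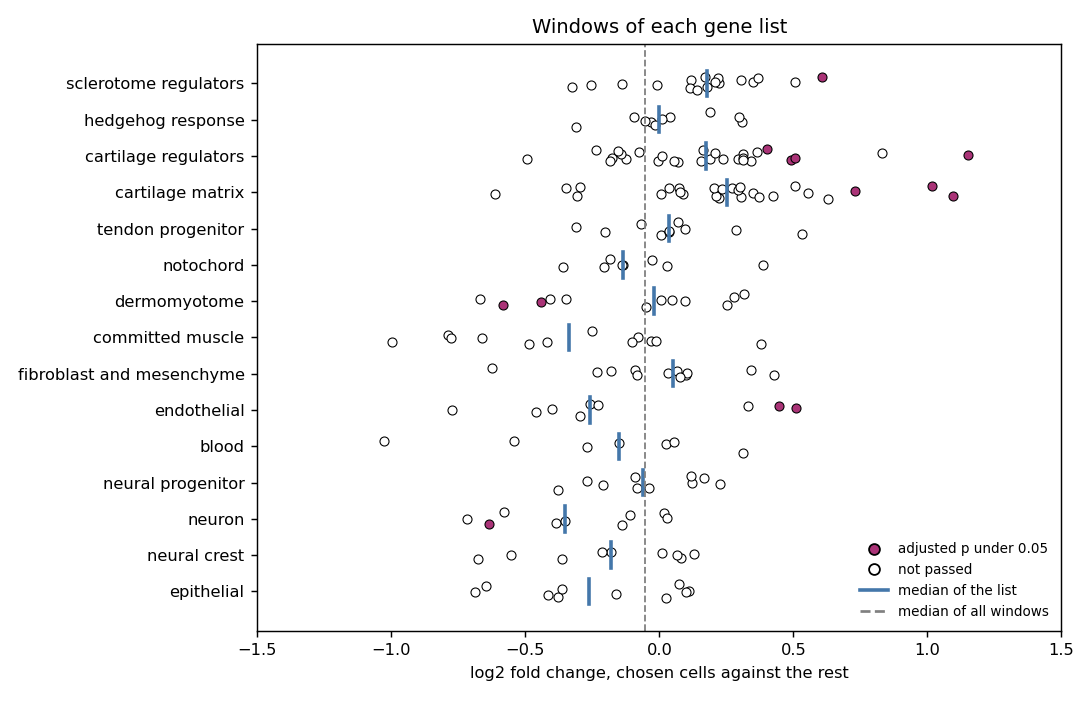
Log2 fold change of each tested window of 15 gene lists, chosen cells against the rest, with filled points for adjusted p under 0.05, a blue bar for the median of a list and a dashed line for the median of all windows. The cartilage and sclerotome lists have medians of 0.18 to 0.25 to the right of the dashed line, and 1 window (PRG4, listed at 0 in the chosen cells) lies outside the axis.

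Windows outside the lists were counted without genes whose symbol begins with LOC. Of these, 42 were called higher with the same direction in all 6 libraries and a mean of at least 5 CPM, and 96 were called lower. Of all windows, 2.3% were higher in all 6. The 10 with the largest rises were SLC13A4, AGT, SCEL, RBPJL, LOXL4, SEMA3E, MIR199B, C2H5orf15, ANGPTL1 and OAF, with log2 fold changes from 0.69 to 1.09. SCEL, LOXL4, ANGPTL1 and OAF did not pass with the rest matched on depth. AGT encodes angiotensinogen, LOXL4 a lysyl oxidase that crosslinks collagen, SEMA3E a secreted guidance cue and ANGPTL1 a secreted angiopoietin-like protein.

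AGT held 44.1, 52.5, 61.6, 45.8, 57.9 and 61.3 CPM in the chosen cells. The rest held 29.6, 28.4, 21.7, 33.6, 20.3 and 25.3 CPM. The groups did not overlap, and unlike WWP2 the rise was present at E18. Its rise was 1.04 ± 0.19 (adjusted p = 6.98e-05 by edgeR). The microRNA gene MIR199B, which lies on the opposite strand within DNM1, held 101, 88.4, 101, 139, 219 and 150.5 CPM. The rest held 46.8, 37.1, 78.0, 93.6, 121 and 75.9 CPM. The rise of 0.81 ± 0.12 (adjusted p = 2.31e-07 by edgeR) was also present at E18, and counts of the microRNA and of DNM1 cannot be told apart. For SLC13A4, a sulfate carrier, the rise was 1.09 ± 0.23 (adjusted p = 0.00102 by edgeR), but with the promoter alone it was -0.38.

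The largest falls included those at IFIT3, CPNE9, CRB1, PADI6, REEP2, DCT, SLC12A3, FAM181A and MLKL, from -2.31 to -1.38, of which CPNE9, PADI6, DCT and MLKL did not pass with the rest matched on depth. They rested on between 12 and 47 counts of the chosen cells each. CRB1, an apical polarity protein of epithelia, had 47 and fell by 1.62 ± 0.27 (adjusted p = 5.73e-06 by edgeR), and DCT, an enzyme of melanin synthesis, had 21. The called lower windows were long, with a median of 148 kb against 47.9 kb for the higher and 23.1 kb for all windows.

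Peaks of the 6 libraries were merged into regions, and 78509 regions with a peak in all 6 were tested. Of these 208 were higher in the chosen cells (0.265%) and 579 lower (0.737%), and the median of all regions was -0.47. The balance rested on scaling. Counts scaled by totals alone gave 424 higher and 190 lower around a median of -0.25, median-ratio size factors gave 390 and 215, and DESeq2 gave 633 and 168. All 3 of these settings raised the median of the regions, to -0.28 at the lowest, so they could hardly remove higher calls. Of the 208 higher regions 197 were called in all 3, and 170 with the rest matched on depth. Of the 579 lower regions 117 and 88 were, and 116 of them had no count in the chosen cells, so the lower regions were described no further than the examples given here. Leaving out E28 DZ left 161 called regions, 46 of them among the 208.

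The higher regions were described by their position, without a test. Of the 208, 40.9% were distal and 40.9% intronic, against 31.4% and 35.7% of all tested regions. Exons held 17.3% against 31.6%, and promoters 0.962% against 1.30%. Each region took the first class it met of exon, promoter (here 2 kb before a gene start), intron and distal. A region over a first exon thus counted as exon, so the promoter share leaves out many regions at gene starts. Their median width was 1736 bp against 1366 bp.

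The 6 largest rises, same in direction in all 6 libraries, were found near ARHGAP5 (2.54), in an intron of UGP2 (2.41), in an intron of DDR2 (2.31), near SLC5A12 (2.28), in an intron of M1AP (2.23) and near RAB18 (2.23). With the rest matched on depth those near ARHGAP5 (2.37, adjusted p = 0.0541 by edgeR) and in M1AP (2.17, adjusted p = 0.0727 by edgeR) did not pass. UGP2 makes UDP-glucose, from which proteoglycan chains are built, and DDR2 is a collagen receptor of mesenchymal and cartilage cells. The region in UGP2 held 4.41, 5.52, 25.3, 34.0, 38.6 and 38.7 CPM in the chosen cells. The rest held 2.17, 2.02, 2.62, 7.11, 4.46 and 4.24 CPM. The E18 libraries were the low ones in the chosen cells, and the rise was 2.41 ± 0.42 (adjusted p = 4.35e-05 by edgeR). The region in DDR2 held 24.5 and 26.9 CPM at E28 against 3.69 and 2.58 in the rest, and between 3.16 and 8.29 CPM at earlier stages (2.31 ± 0.64, adjusted p = 0.0385 by edgeR).

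Among the largest falls, an intron of MAP4K4 had 4 counts in all chosen cells and an intron of DSCAML1, a neuronal adhesion gene, had 6, with log2 fold changes of -3.72 and -3.52. An intronic region near SEPT7 had 3 counts against 11282 in the rest.

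The central 200 bases of 7 higher regions are given here to show the letters behind the motif counts that follow. The first 6 are examples that hold at least 1 of the cores, and the last, without one, was picked for its place in WWP2. Of the other regions read, the strongest near FOXC1 (1 FOX core, 180 kb from its start inside GMDS) and MATN4 (1 RUNX core) are not printed. Nor are the regions near ARHGAP5 and SLC5A12 and the strongest near ACAN, COL2A1, UNCX and PTN, which hold none of the cores in their central 200 bases. Of those printed, the first 4 are from the largest rises, the fifth is the strongest region at SOX5 (1.77 ± 0.25, adjusted p = 4.58e-08 by edgeR), the sixth is the strongest near CNMD, the gene of chondromodulin (2.04 ± 0.40, adjusted p = 5.45e-04 by edgeR), and the last is the strongest in WWP2. All were read from the RefSeq genome of build Sscrofa11.1 on the plus strand, and capitals mark cores of SOX (ACAAAG or AACAAT), FOX (TAAACA) and RUNX (TGTGGT) factors on either strand.
UGP2 intron (chr3:77991627-77991826): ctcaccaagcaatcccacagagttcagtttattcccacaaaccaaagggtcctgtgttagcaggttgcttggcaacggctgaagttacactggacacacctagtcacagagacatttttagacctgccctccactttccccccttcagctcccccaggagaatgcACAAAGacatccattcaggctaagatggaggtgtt
DDR2 intron (chr4:87799575-87799774): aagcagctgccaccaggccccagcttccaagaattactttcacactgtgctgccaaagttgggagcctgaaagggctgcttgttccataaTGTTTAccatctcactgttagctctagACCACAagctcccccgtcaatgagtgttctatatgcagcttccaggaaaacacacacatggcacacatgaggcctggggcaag
M1AP intron (chr3:68464052-68464251): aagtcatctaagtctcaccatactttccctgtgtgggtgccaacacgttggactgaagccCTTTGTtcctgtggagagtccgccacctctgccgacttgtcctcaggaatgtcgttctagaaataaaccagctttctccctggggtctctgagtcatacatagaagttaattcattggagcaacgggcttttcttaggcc
near RAB18 (chr10:39008711-39008910): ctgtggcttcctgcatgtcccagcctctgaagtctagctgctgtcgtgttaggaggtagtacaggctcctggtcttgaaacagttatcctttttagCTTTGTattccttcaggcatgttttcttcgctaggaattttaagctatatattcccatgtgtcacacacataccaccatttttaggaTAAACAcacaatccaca
SOX5 intron (chr5:49927369-49927568): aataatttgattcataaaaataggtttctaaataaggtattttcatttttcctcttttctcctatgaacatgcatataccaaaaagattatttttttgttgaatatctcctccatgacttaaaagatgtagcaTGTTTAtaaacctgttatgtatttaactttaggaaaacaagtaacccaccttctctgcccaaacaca
near CNMD (chr11:26048912-26049111): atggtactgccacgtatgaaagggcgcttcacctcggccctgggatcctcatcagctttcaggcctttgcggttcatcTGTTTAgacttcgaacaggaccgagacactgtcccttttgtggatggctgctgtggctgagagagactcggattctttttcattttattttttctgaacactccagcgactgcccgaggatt
WWP2, near MIR140 (chr6:17084026-17084225): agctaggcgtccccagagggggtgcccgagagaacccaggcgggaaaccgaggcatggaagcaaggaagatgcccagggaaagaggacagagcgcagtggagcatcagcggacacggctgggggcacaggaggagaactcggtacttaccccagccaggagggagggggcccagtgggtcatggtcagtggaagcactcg

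Of the 300 bases at the centre of each region, 27.9% of the higher regions held the FOX core, against 15.6% of all tested and 13.0% of the lower regions. The SOX core in either form was present in 40.4% against 28.9% and 32.3%, and the RUNX core in 23.6% against 17.0% and 15.4%. At least 1 of the 3 was present in 69.2% of the higher regions, 48.4% of all and 49.4% of the lower regions. A SOX and a FOX core shared bases in 2.40% of the higher regions and 1.54% of all, so the counts were nearly separate. Other motifs were searched on both strands as well. The E-box of muscle factors (CAGCTG) was present in 26.0% against 24.0%, the TEAD core (GGAATG) in 22.1% against 18.3%, the NKX3 core (TAAGTG) in 10.6% against 9.95%, and the GLI core (GACCACCCA) in 1 of the 208 regions (0.481% against 0.298%). The GATA core (AGATAA) was present in 7.21% against 11.4% and the ETS core (CCGGAA) in 4.81% against 8.22%. The AP-1 motif (TGAGTCA) stood at 4.81% against 5.63%, the TWIST E-box (CATATG) at 5.77% against 5.45% and the homeobox core (TAATTA) at 6.25% against 5.56%. These shares are descriptions of letters in a window and were not tested. The median GC content was 51.0% in the higher and 51.7% in all tested regions.

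Of the listed genes WWP2 held the most called regions. Of 17 tested regions inside it 5 were higher and none lower, and 15 had a positive difference. The strongest, chr6:17082159-17086093, overlaps an exon near the far end of the gene, 6.53 kb from the start of MIR140. It held 35.3, 35.9, 120, 136, 94.0 and 164 CPM in the chosen cells. The rest held 23.9, 22.7, 32.9, 40.8, 37.9 and 31.9 CPM. It was higher in 6 of 6 libraries, with the E18 sums lowest (1.32 ± 0.17, adjusted p = 9.52e-10 by edgeR). The other 4 called regions formed a group between 34.5 and 59.0 kb from the start of WWP2, with differences from 1.35 to 1.82. The region at the start itself stood at -0.01 ± 0.31 and did not pass, where the median of all regions was -0.47. All called regions thus lay farther inside the gene, but the SE is too wide to tell whether the start differed.

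**Figure D5:**
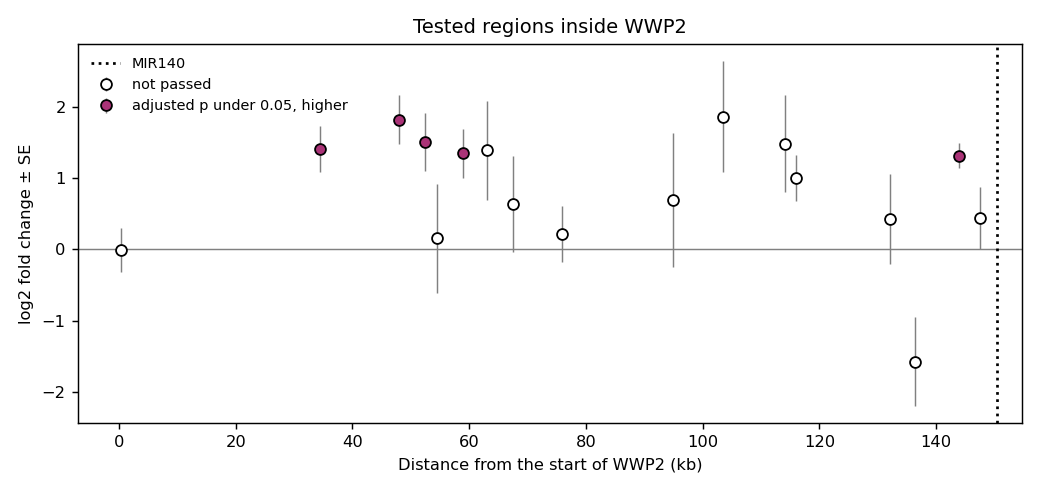
Log2 fold change ± SE of the 17 tested regions inside WWP2 by distance of their centre from the start of the gene (kb), with filled points for adjusted p under 0.05 and a dotted line at MIR140. The region at the start lies at -0.01, and 4 called regions lie between 34.5 and 59.0 kb and 1 at 144 kb.

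Within 500 kb of the markers, but outside their windows, 502 regions were tested, of which 5 were higher (0.996%, against 0.265% over all regions) and 3 lower, where 0.737% of all regions were lower. These regions share no count with the windows that chose the cells. The region 25.7 kb from the start of COL2A1 held 81.6, 82.9, 69.5, 83.7, 54.1 and 43.0 CPM in the chosen cells. The rest held 54.7, 58.2, 38.2, 39.1, 23.2 and 13.4 CPM. Both groups were lowest at E28, and the chosen cells were higher in all 6 libraries (0.75 ± 0.18, adjusted p = 0.0106 by edgeR). A change of this region with stage was not tested.

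A region 70.8 kb from the start of UNCX rose by 0.93 ± 0.20 (adjusted p = 0.0037 by edgeR) in 6 of 6 libraries. The region 36.3 kb from ACAN held 4.41 and 0 CPM in the chosen cells of the E18 libraries, 25.3 and 31.4 CPM in those of E21, and 23.2 and 45.2 CPM in those of E28. The rest held at most 8.37 CPM, and the rise was 1.64 ± 0.42 (adjusted p = 0.0213 by edgeR). With the rest matched on depth it was 1.46 and did not pass (adjusted p = 0.0857 by edgeR), while the other 4 higher regions did. A region 420 kb from SOX9 rose by 1.42 ± 0.30 (adjusted p = 0.00252 by edgeR), in 5 of 6 libraries. A region 293 kb from COL11A1 rose by 1.30 ± 0.34 (adjusted p = 0.0228 by edgeR) in 6 of 6, though RNPC3 is the gene nearest to it. The 3 lower regions lay 15.3 kb from the start of SOX9, with no count in the chosen cells of any library and 2.01 to 7.80 CPM in the rest, 146 kb from FOXC2 (-2.42 ± 0.60, on 9 counts of the chosen cells) and 450 kb from UNCX (-1.03 ± 0.26). None of these 3 was called with the rest matched on depth, where the first was not tested. Other called higher regions of the skeletal lists lay near FOXC1 (3 regions, from 0.88 to 1.59), MEOX2 (1.59), FOXD1 (0.75), TWIST1 (0.91), FGFR2 (0.99 and 1.42), CNMD (1.09), CHST11 (1.75) and MATN4 (1.26). Those of MEOX2 and TWIST1 and the FGFR2 region at 1.42 lay 327, 318 and 288 kb from the gene start. That FGFR2 region was higher in 3 of 6 libraries, and the TWIST1 region lay inside HDAC9. The FOXC1 regions lay 24.9, 105 and 180 kb from its start, those at 105 and 180 kb inside GMDS. The regions of FOXD1 and CNMD lay 115 and 87.5 kb from the gene start. Other regions of these lists were called lower, near MSX2 (-3.72), NOG (-2.09) and RUNX1 (-3.30) and inside CREB3L2 (-1.92) and FGFR2 (-10.7 ± 2.82). Those of NOG and RUNX1 lay 114 and 199 kb from the gene start. Levels were low, with means of 1.82 CPM for the FGFR2 region, 2.61 for MSX2, 3.89 for RUNX1, 8.80 for NOG and 9.13 for CREB3L2. Regions at PAX3 (-2.46) and PAX7 (-1.70) were called lower.

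The chosen cells were also compared with committed-muscle cells, which passed the same form of rule on the committed muscle list. After removal of cells that passed both rules, 473 were compared with 946 over 18613 windows, and 488 were higher (2.62%) and 996 lower (5.35%). Called windows were fewer without a later library, with 631 without E28 ZZ, 647 without E28 DZ, 718 without E21 DZ and 908 without E21 ZZ, and 2955 without both E18 libraries. The windows of both lists that chose the cells were left out, and each class was chosen on the data, so these counts describe how far apart the classes lie.

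Of the cartilage genes, MATN4 differed by 1.56 ± 0.21 (adjusted p = 1.1e-04 by edgeR), WWP2 by 1.46 ± 0.25 (adjusted p = 9.59e-04 by edgeR) and SOX5 by 0.79 ± 0.15 (adjusted p = 0.00199 by edgeR). GDF5 was higher by 2.28 ± 0.52 (adjusted p = 0.00698 by edgeR). MATN4 and SOX5 were higher in 6 of 6 libraries, and WWP2 and GDF5 in 5 of 6. In E18 ZZ the chosen cells were lower for WWP2 (131 against 148 CPM) and GDF5 (0 against 11.2 CPM). The list of cartilage regulators had 5 higher genes of 28, with BMPR1B and FGFR2 as the others, where 2.62% of all windows were higher, and 2 lower (NOG and CHRD), near the 5.35% of all windows. Matrix genes had 3 of 26 higher (MATN4, PRELP and PAPSS2), and sclerotome regulators 2 of 17 (FOXC1 and PRRX2). FOXC1 was higher in 4 of 6 libraries and lower in both of E18 (136 and 122 against 142 and 126 CPM). Higher genes were also found in other lists, with 2 of 8 endothelial genes (ERG and FLI1), 1 of 8 notochord genes (NOX4) and 1 of 11 fibroblast genes (LUM), while TBX15 of the fibroblast list and NES of the neural progenitor list were lower. The medians of the cartilage regulator, matrix and sclerotome lists were 0.21, 0.41 and 0.38 against 0.0029 over all windows. The dermomyotome list went the other way: 5 of 12 were lower, among them PAX7 (-1.26) and PAX3 (-1.12), MET, the receptor of migrating muscle progenitors (-1.13), CXCR4 and DMRT2. Of genes outside the lists, named after their values were seen, NMRK2, KLHL40 and KLHL41, all known from muscle, were among the largest falls (-5.35, -4.67 and -4.11), and HGF, the ligand of MET, was among the largest rises (2.26 ± 0.54).

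The chosen cells were also compared among themselves. They were divided by which set of markers was larger, each set scaled to its sum over the chosen cells of the library. The sclerotome markers PAX1, PAX9, NKX3-2, FOXC2 and UNCX were ahead in 242. In the other 236, SOX9, COL2A1, ACAN, COL9A1 and COL11A1 were ahead or level. Each group held between 21 and 57 cells of a library, which limits what could be detected, and no simulation was run for this comparison. None of 15842 other windows differed between the groups by edgeR or by DESeq2, with 617 and 492 at an unadjusted p under 0.05.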

How the data were processed

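Per the submitters' processing notes, the authors used Cell Ranger ATAC 1.2.0, Seurat 3.1.1 and Signac 0.2.2. The deposited matrices hold raw counts of cut sites per peak and barcode (build Sscrofa11.1), with peaks called separately in each library, so a stretch without a peak is listed at 0. Of 64439 deposited barcodes the 58809 with 2000 to 30000 counts were kept. No doublet caller was run, and the filters of the study on fragment quality were not applied.

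Counts of chosen cells and rest were summed per library over gene windows (RefSeq annotation, overlap of at least 1 bp) or merged regions and compared with edgeR 4.0.16 in R 4.3.3 (TMM, filterByExpr, quasi-likelihood test, library as a block, Benjamini-Hochberg adjustment, threshold 0.05). DESeq2 1.42.0 was the alternative. Windows sharing a peak with a marker were removed. Depth-matched rest cells numbered 3 for each chosen cell. In simulated counts with 200 changed windows, 25.5% were recovered at 1.5-fold, 62.0% at 2-fold and 84.0% at 4-fold.

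Named were the 6 largest and 2 smallest values of each skeletal list, the extremes of each other list, the 10 largest rises and falls outside the lists and the 6 largest rises and 3 largest falls of regions. For the windows outside the lists, symbols that begin with LOC were left out. Members, lists and tests were chosen with earlier results of these data known, and the fits without both E18 libraries after seeing the data. SNORC, COL6A1, COL6A2, TBXT, CD24, MYMX, MYH3, EGFL7 and TUBB3 were not matched in the annotation. A few values that the naming rule covers are not reported here.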

Additional observations from a re-analysis of the deposited data

Results flagged for a closer look

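The difference between chosen cells and rest changed between E18 and E28 at 18 windows and between E18 and E21 at 1 window, in an edgeR test of the interaction. At WWP2 it grew by 1.42 (log2, E28 against E18) and by 1.15 (E21 against E18). The other windows were named after their values were seen, since they did not keep 1 direction in all 6 libraries. The difference grew by 3.58 at POC5, 2.11 at PLEKHB1, 1.76 at CPXM2, 1.42 at CSPG4, 1.42 at LOC102162488, 1.19 at ITGB5, 1.14 at RARG, 0.94 at PTCH1 and 0.86 at MECOM. It shrank at CD163L1 (-3.70), LOC106506541 (-2.76), CAP2 (-1.91), TEAD3 (-1.88), LOC110257027 (-1.85), SYNPR (-1.75), PGM5 (-1.54) and ANO2 (-1.10).

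CSPG4 encodes a surface proteoglycan of mesenchyme, RARG a retinoic acid receptor of cartilage and PTCH1 the hedgehog receptor. CSPG4 held 55.1, 60.8, 96.4, 79.8, 200 and 166.7 CPM in the chosen cells, in the order of the stages with ZZ before DZ at each. The rest held 56.4, 51.5, 50.3, 49.7, 78.1 and 52.4 CPM, with the groups close at E18 and apart at E28. RARG went from 132 and 127 CPM at E18 to 315 and 308 CPM at E28, where the rest held 176 and 125 CPM. PTCH1 lay below the rest at E18 (141 and 213 against 225 and 250 CPM) and above it at E28 (260 and 353 against 223 and 214 CPM). POC5 held 4.41 and 0 CPM in the chosen cells at E18 against 32.7 and 32.8 CPM. Without E28 DZ none of the 18 windows passed. With the rest matched on depth 8 windows passed.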

How the results depend on the processing

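With the rest matched on depth 137 windows and 331 regions passed, with presence of a count in place of its value 685 and 1831, with 2 times the mean share 1120 and 4979, and with 5 times 0 and 15203, where sums rest on 1 to 12 cells a library. With the promoter alone 43 windows and 3 list genes passed. Without both E18 libraries the counts were 597 windows, 1228 regions, 14 list genes and 2955 windows against committed-muscle cells. Leaving out a library gave 116 to 461 windows, 161 to 975 regions, 631 to 2016 windows against committed-muscle cells, 3 to 6 left-out markers, and for the E28, E21 and breed terms 0 to 30, 0 to 5 and 0 to 3 windows. The E28 term gave 28 windows with no breed term, 8 matched on depth and 37 by DESeq2.

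The share of chosen cells was 1.26% with 3 windows, 0.497% with 5, 4.88% with 2 times and 0.0612% with 5 times the mean share and 2.03% after thinning. The ratio of E28 to E18 was 1.18 and 5.20 with 2 and 5 times the mean share, 1.66 with 1 mean share and 1.34 after thinning.

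Values changed sign for ANGPTL1 (-0.99), SLC13A4 (-0.38), PAPSS2 (-0.11) and ARID5B (0.12) with the promoter alone, for MSX2 (0.045), PRG4 (0.023) and UCMA (0.37) with 2 times the mean share, for UCMA by DESeq2 (0.14), and for the left-out FOXC2 without E21 DZ (-0.031) and without E28 DZ (-0.015), in a range of -0.031 to 0.26 over the libraries left out. The cause was not tested. Of 33 named called windows, 537 of 658 alternative values kept direction and call and 119 lost the call, and for 9 named regions 20 of 171 lost it. These alternatives did not include 5 times the mean share, where 0 windows passed and no region was called higher. They did include the fit without both E18 libraries. For 19 stage terms 98 of 171 lost the call, and for the 6 called left-out markers 10 of 48 did.

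A stage and breed had 1 library, so nothing was tested within one, and 46 to 109 chosen cells a library limit what could be detected. The simulated 1.5-fold changes were mostly missed.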
